A study of Arabidopsis thaliana with 6 samples.

Results

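UDP-glycosyltransferases (UGTs) were followed through the first days of an induced change of cell fate in Arabidopsis thaliana cotyledons. The genes were chosen by name: every probe set with exactly 1 gene in the platform's probe table whose symbol is UGT followed by digits, keeping the brightest on average where a gene had several. This gave 51 genes on 56 probe sets, out of 16550 genes with a probe set of their own, in 12 families set by the number after UGT. The families UGT71 and UGT73 had 10 genes each, UGT76 had 8, UGT85 had 5, UGT72 and UGT84 had 4 each, UGT74 and UGT78 had 3 each, and UGT80, UGT87, UGT88 and UGT89 had 1 each. RefSeq (assembly TAIR10.1) lists 58 genes with such a symbol. The other 7, UGT74E2, UGT74F2, UGT75B1, UGT75B2, UGT84A1, UGT84A2 and UGT85A1, had no probe set that named them alone and were not analysed as members.

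All samples were wild-type cotyledons of 6-day-old seedlings, grown in liquid MS medium at 22 °C in continuous light. The culture system was VISUAL, which turns mesophyll cells of the leaf into xylem and phloem. It used the auxin 2,4-D at 1.25 mg/L, the cytokinin kinetin at 0.25 mg/L and bikinin at 10 µM. Bikinin blocks GSK3-like kinases and so activates the brassinosteroid pathway. The sugar was glucose or sucrose, both at 5%, and each was sampled at 0, 24 and 48 h, so that 6 groups had 1 array each. The 0 h arrays were taken as before culture and so as a pair without a sugar effect. That assumption was not tested, and the spread in every test rests on it. Times are those of the sample titles; a second time label differs on 5 of the 6 arrays, reading 34 h for glucose 24 h and 72 h for glucose 48 h and for all 3 sucrose arrays. Whole cotyledons were extracted, so fewer cells of a type and less transcript per cell cannot be told apart. No sample was cultured without the hormones or without bikinin, so the parts of the hormones, of bikinin and of time in culture cannot be told apart.

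UGTs move a sugar, most often glucose, from a UDP-sugar onto a small acceptor molecule. Acceptors include hormones such as abscisic acid (ABA), auxin, cytokinin and salicylic acid, as well as flavonoids, lignin precursors, glucosinolate intermediates and foreign compounds. The added sugar usually makes the acceptor more soluble, less active and ready for storage in the vacuole. Family numbers follow sequence likeness, and many of the genes lie side by side on the chromosomes as tandem copies.

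Signals are given on the log2 scale after each array was scaled to a common trimmed mean, and values under 4.90, the 40th percentile of all arrays pooled, were raised to that floor and are written as at the floor. A probe set was tested when it was above the floor on at least 2 arrays. Of the 51 genes, 32 were tested. Another 17 were above the floor on no array, with scaled signals from 1.60 to 4.81, and 2 were above it on 1 array only: UGT74F1, a salicylic acid glucosyltransferase gene, at 5.31 on the glucose 48 h array, and UGT76D1, which encodes a dihydroxybenzoate glycosyltransferase, at 6.13 on the sucrose 24 h array. The number of UGT genes above the floor was 29, 25 and 25 on the glucose arrays at 0, 24 and 48 h, and 30, 26 and 19 on the sucrose arrays.

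The arrays carried the labelled tissue. Of 6 mesophyll marker genes, 5 had a named probe set, and all of these were above the floor on both 0 h arrays (9.62 to 11.87). Their summed linear signal was 11164 and 10899 at 0 h, 966 and 327 at 24 h, and 714 and 318 at 48 h (glucose, then sucrose). The 3 of 4 xylem markers found summed to 734 and 758 at 0 h, 712 and 442 at 24 h, then 3326 and 740 at 48 h. The 3 of 4 phloem markers found summed to 1556 and 2270 at 0 h, 296 and 416 at 24 h, then 397 and 303 at 48 h; SWEET11 made up most of the 0 h sums and was under the floor at 48 h, while OPS and CLE45 were under it at 0 h and above it at 48 h. The root marker EXPA7 stayed between 3.89 and 5.26 on all 6 arrays, and the stomatal lineage markers FMA and SPCH were above the floor at 0 h while MUTE never was. Over all arrays, 58.5% to 60.9% of probe sets were above the floor. The 12 background controls of high GC content, which match no plant sequence, differed from 0 h by -1.47 (log2) at 24 h and by -1.22 at 48 h. The median of all 23 background controls was 6.07 and 5.51 at 0 h, 4.64 and 4.51 at 24 h, and 5.15 and 4.42 at 48 h (glucose, then sucrose). At 0 h it was thus above the floor, so a signal above the floor need not stand above background. The part of these markers and of the background controls in the UGT differences was not tested.

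**Figure D1:**
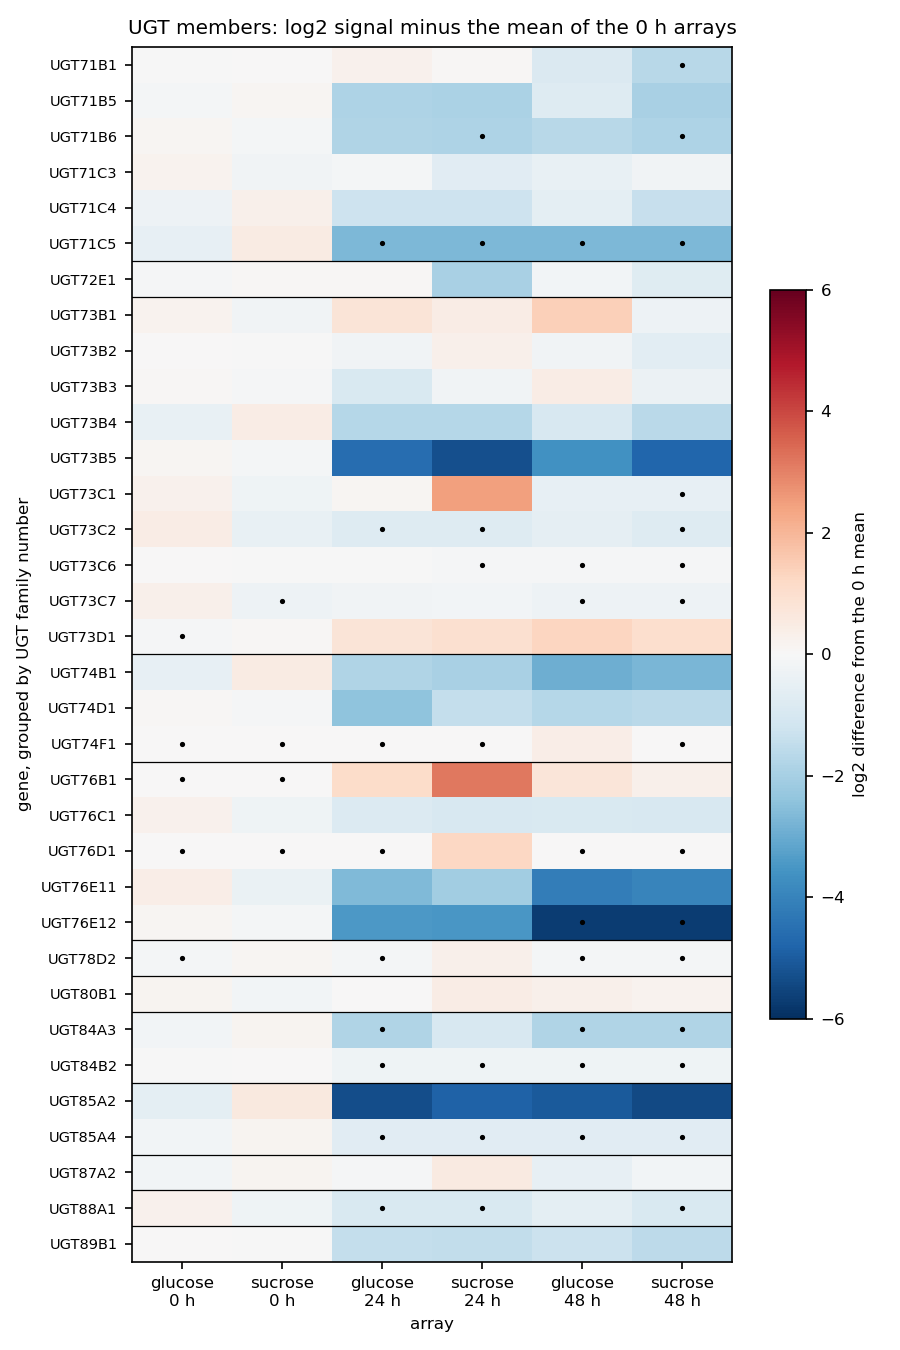
Log2 signal of each UGT gene that was above the floor on at least 1 array (rows, grouped by family number), minus the mean of the 2 arrays at 0 h, for the 6 arrays (columns); colour runs from blue (lower) to red (higher) and a dot marks a signal at the floor of 4.90. The deepest blue cells are those of UGT85A2, UGT73B5, UGT76E12 and UGT76E11 in culture, and the strongest red cells are UGT76B1 and UGT73C1 on the sucrose 24 h array.

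The genes that never rose above the floor came from 6 families. In UGT71 they were UGT71B8, UGT71C1, UGT71C2 and UGT71D1. In UGT72 they were UGT72B3 and the monolignol glucosyltransferase genes UGT72E2 and UGT72E3. UGT76 contributed the cytokinin N-glucosyltransferase gene UGT76C2 and the pair UGT76E1 and UGT76E2. The flavonol glycosyltransferase genes UGT78D1 and UGT78D3, the hydroxycinnamate glucosyltransferase gene UGT84A4 and the auxin glucosyltransferase gene UGT84B1 were also at the floor, as were UGT85A3, UGT85A5 and UGT85A7. All 10 UGT73 genes, by contrast, were above it on at least 2 arrays and were tested. A signal at the floor shows only that it was not above the pooled 40th percentile on these arrays.

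The first comparison asked how the UGT genes differed after 24 h of induction. At 24 h, 15 genes were lower and 2 higher than at 0 h in the limma model over both sugars, and 15 tested genes did not pass. UGT85A2, UGT73B5 and UGT76E12 had the largest falls, from 3.47 to 5.10 on the log2 scale, and the rises were those of UGT76B1 and UGT73D1. Among all 25826 tested probe sets 44% passed (24.2% higher and 19.8% lower), with a median of 0.10. Among the 10662 of these that name 1 gene, 40.4% passed, 18% higher and 22.4% lower, with a median of -0.09. The median over the 32 tested UGT genes was -0.83, with genes at the floor entering at their bound. Genes had to be above the floor on 2 arrays to be tested, and 31 of the 32 were above it on at least 1 of the 0 h arrays, as were 92.0% of all tested probe sets. UGT71C5, UGT84B2 and UGT85A4 passed the filter through the 0 h arrays alone and so could differ only by a fall. UGT76B1 passed it through the cultured arrays alone and so could differ only by a rise. Of the 17 UGT genes above the floor on all 6 arrays, a set without genes that reached the floor, 0 were higher and 9 lower, where 24.1% and 19.3% of such probe sets were. With quantile normalization between arrays the split was 0 higher and 16 lower.

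The second comparison set 48 h against 0 h. At 48 h, 13 UGT genes were lower and 1, UGT73D1, was higher, and 18 tested genes did not pass. UGT76E12, UGT85A2, UGT73B5 and UGT76E11 had the largest falls, from 4.05 to 5.72. Over all tested probe sets 42% passed (22.1% higher and 19.9% lower), with a median of 0.13. Over those that name 1 gene 43.4% passed, 21.4% higher and 22% lower, with a median of -0.0004. The median of the tested UGT genes was -0.73, again with floored genes at their bound. Of the 17 UGT genes above the floor on all 6 arrays, 0 were higher and 7 lower, where 23.9% and 19.6% of such probe sets were. Both comparisons use the same 0 h arrays, so each gene's 24 h and 48 h values below are given side by side. Every difference is a mean over both sugars, ± SE, 2 arrays against 2, and the labels name no separate cultures. The p-values therefore rest on the spread of these 6 arrays alone, and that spread may be technical.

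Fits that leave out 1 array have fewer residual degrees of freedom and hold 1 array at 1 of the times. Fewer calls in them therefore cannot show that a count rested on a given array. At 24 h the difference of UGT73B5 ran from -5.11 to -4.70 over the 6 fits, and that of UGT76B1 from 0.92 to 3.36. When either 24 h array was left out, 0 genes passed at 24 h, and when either 48 h array was left out, 0 passed at 48 h. The 24 h count became 8 when glucose 48 h was left out, 6 when sucrose 48 h was, and 13 when either 0 h array was. The 48 h count became 8 when either 24 h array was left out, 10 when glucose 0 h was, and 12 when sucrose 0 h was. UGT71B6, UGT73B5, UGT74D1, UGT76E12 and UGT89B1 passed at both times in every fit that kept both arrays of the time tested, and UGT76B1 did so at 24 h. Each of the other calls, those of UGT85A2 and UGT76E11 among them, was lost in at least 1 of these fits.

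**Figure D2:**
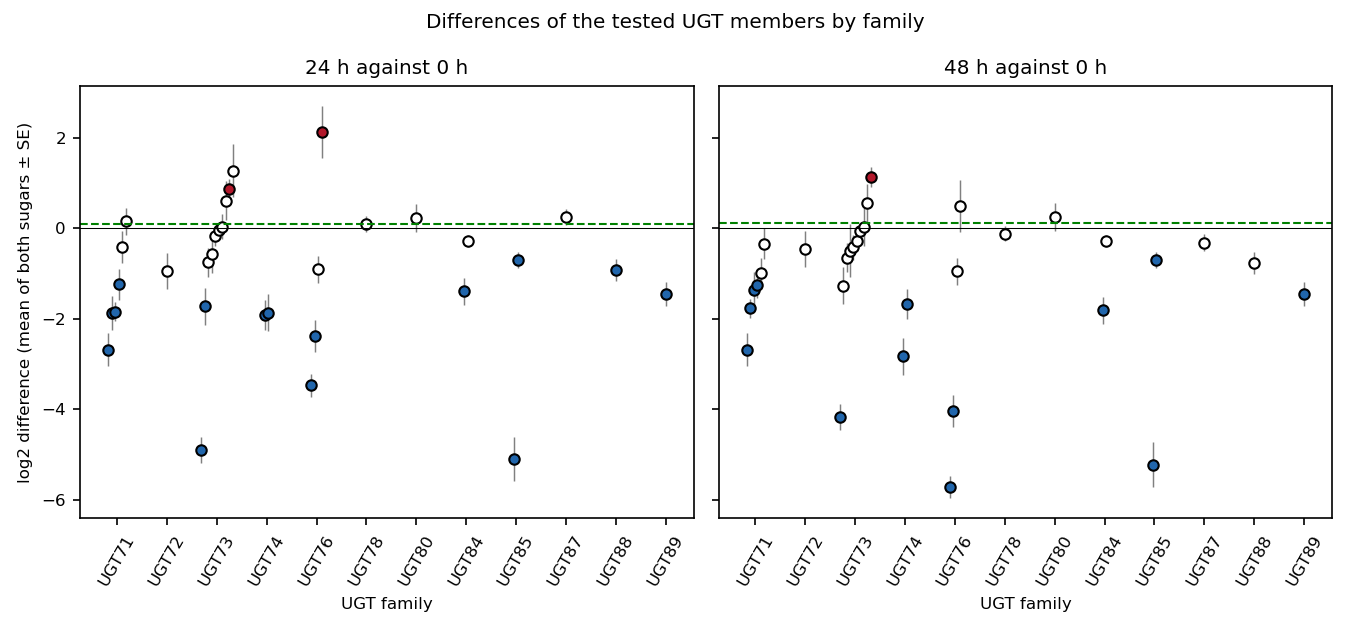
Log2 difference from 0 h of each tested UGT gene (points; mean over both sugars, bars ± SE from the limma model, 2 arrays against 2), by family, at 24 h (left) and 48 h (right); blue and red points passed at an adjusted p of 0.05 and open points did not. The green dashed line is the median of all tested probe sets, 0.10 and 0.13; the UGT73 points run from -4.91 to 1.28 at 24 h, and the lowest points are UGT85A2 at 24 h and UGT76E12 at 48 h.

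UGT85A2 (AT1G22360, chromosome 1) had the largest fall at 24 h. It read 9.70 at 0 h, 4.98 at 24 h and 5.24 at 48 h on the glucose arrays, and 10.91, 5.43 and 4.91 on the sucrose arrays. Both 0 h values lay over 4 units above all 4 cultured values, which were within about 1 unit of the floor. The gene fell by 5.10 ± 0.50 at 24 h (adjusted p = 0.00317) and by 5.23 ± 0.50 at 48 h (adjusted p = 0.00218). The 0 h pair of arrays itself differed by 1.21, the only at least 2-fold difference between the 0 h arrays among the 31 UGT genes above the floor on either of them. At least 2-fold higher in sucrose at 0 h were 4.88% of all probe sets and 2.38% of those that name 1 gene, and 1.66% and 1.36% were lower.

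UGT73B5 (AT2G15480), known from work on the hypersensitive response as a redox-responsive gene, showed a fall of similar size. Its signals were 10.36, 5.69 and 6.62 in glucose at 0, 24 and 48 h and 10.12, 4.98 and 5.50 in sucrose. It fell by 4.91 ± 0.29 at 24 h (adjusted p = 0.00183) and by 4.18 ± 0.29 at 48 h (adjusted p = 0.00122). The 48 h signal was above the 24 h signal in both sugars, by 0.73 ± 0.29 on average, which did not pass (adjusted p = 0.265). Its neighbour UGT73B4 (AT2G15490), whose enzyme conjugates the explosive TNT and related compounds, read 7.01, 5.72 and 6.49 in glucose and 7.86, 5.72 and 5.84 in sucrose. UGT73B4 fell by 1.72 ± 0.41 at 24 h (adjusted p = 0.0234), and its 48 h difference of -1.27 ± 0.41 did not pass (adjusted p = 0.0566).

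UGT76E12 (AT3G46660) and UGT76E11 (AT3G46670), adjacent genes on chromosome 3, fell at 24 h in both sugars. On the probe sets kept, they were lower again at 48 h in both sugars. UGT76E12 read 10.71 and 7.16 in glucose and 10.52 and 7.12 in sucrose at 0 and 24 h, and was at the floor on both 48 h arrays. It fell by 3.47 ± 0.25 at 24 h (adjusted p = 0.00209) and was at least 52.7-fold lower at 48 h (adjusted p = 0.000972). UGT76E11, reported to glucosylate flavonoids, read 10.13, 7.07 and 5.58 in glucose and 9.33, 7.63 and 5.79 in sucrose. Its falls were 2.38 ± 0.35 at 24 h (adjusted p = 0.00685) and 4.05 ± 0.35 at 48 h (adjusted p = 0.00184). Between 24 and 48 h the pair differed by -2.25 ± 0.25 and -1.67 ± 0.35, with adjusted p-values of 0.0844 and 0.127 that did not pass. A second probe set of UGT76E12, above the floor on all 6 arrays, differed by only -0.14 ± 0.29 between these times.

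**Figure D3:**
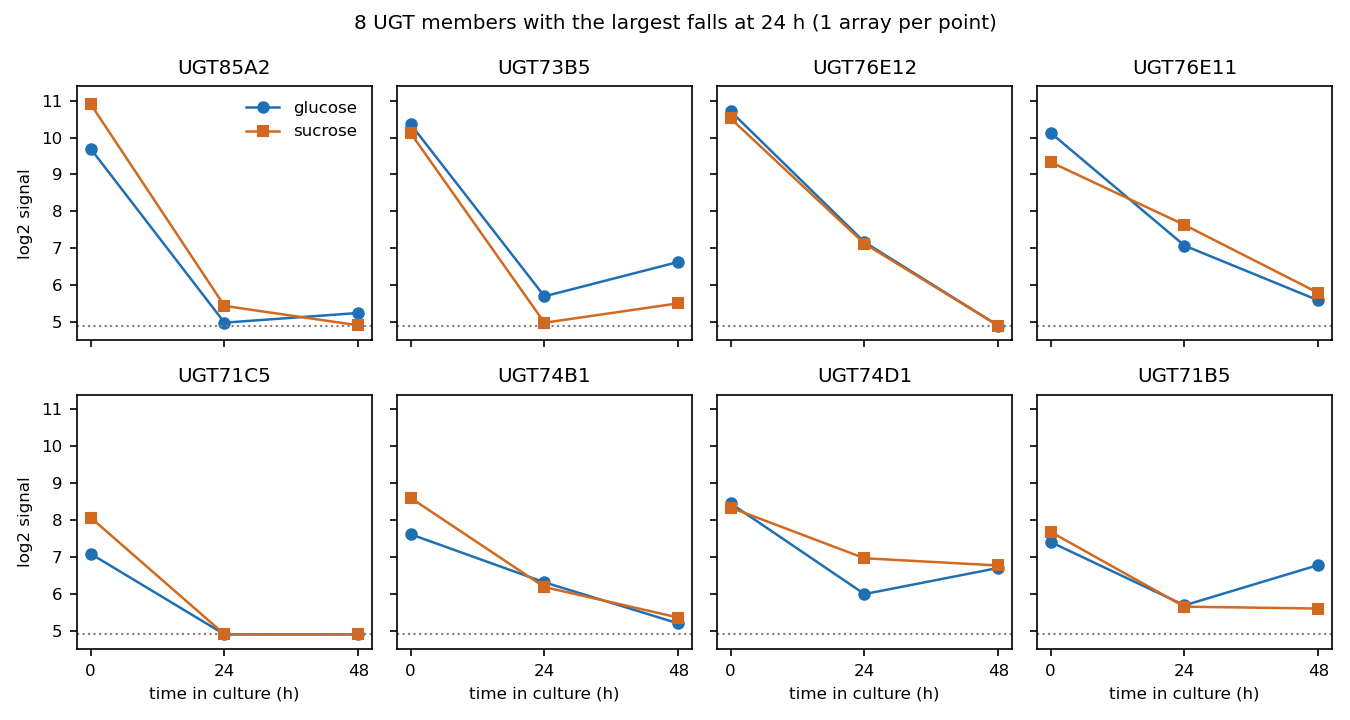
Log2 signal against time in culture for the 8 UGT genes with the largest falls at 24 h, with 1 array per point; circles are glucose, squares are sucrose, and the dotted line is the floor at 4.90. In every panel both 0 h points lie above all 4 cultured points; UGT76E12 and UGT71C5 reach the floor at 48 h in both sugars, and UGT73B5 and UGT71B5 lie higher in glucose than in sucrose at 48 h.

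Of the 4 listed genes for ABA glucosylation, 3 had a probe set of their own, and both tested ones fell at both times. Beside this list and those below, 22.4% and 22% of all tested probe sets that name 1 gene were lower at 24 and 48 h. Those higher were 18% and 21.4%. UGT71C5 (AT1G07240), whose enzyme makes ABA glucose ester, read 7.08 in glucose and 8.07 in sucrose at 0 h and was at the floor on all 4 cultured arrays. It was at least 6.40-fold lower at 24 h (adjusted p = 0.00600) and at 48 h (adjusted p = 0.00554). Tested through its 0 h signals alone, UGT71C5 could differ in this direction only. Since its cultured signals carry no spread, the gene's own spread comes from the 0 h pair alone. The floored cultured arrays still count toward the 2 residual degrees of freedom. The spread and the p-values may therefore be too small, for UGT71C5 as for UGT84B2 and UGT85A4. The error of UGT71C5 combines its own spread with one shared over all tested probe sets. The call was lost in each of the 4 fits that left out a cultured array. UGT71B6 (AT3G21780), which glucosylates ABA in vitro, read 6.90, 4.96 and 5.11 in glucose and 6.65 in sucrose at 0 h, with the floor on both cultured sucrose arrays. UGT71B6 fell by 1.84 ± 0.21 at 24 h (adjusted p = 0.00415) and by 1.77 ± 0.21 at 48 h (adjusted p = 0.00359). The remaining one, UGT71B8, was at the floor throughout.

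Of the 6 listed genes for auxin glucosylation, 1 fell, 1 did not pass and 1 was at the floor, and the others had no probe set of their own. UGT74D1 (AT2G31750), whose enzyme glucosylates natural and synthetic auxins, read 8.45, 5.99 and 6.70 in glucose and 8.34, 6.96 and 6.77 in sucrose. It fell by 1.92 ± 0.33 at 24 h (adjusted p = 0.00999) and by 1.66 ± 0.33 at 48 h (adjusted p = 0.0144). A second probe set of UGT74D1 differed by -0.72 ± 0.30 at 24 h, which did not pass, and fell by 1.37 ± 0.30 at 48 h (adjusted p = 0.0200). UGT84B2 was above the floor at 0 h alone and did not pass at either time. Neither tested gene of the cytokinin list, UGT73C1 or the cytokinin N-glucosyltransferase gene UGT76C1 (AT5G05870), passed at either time. UGT76C1 read from 5.82 to 7.04, was higher on both 0 h arrays than on any cultured array, and differed by -0.90 ± 0.30 at 24 h (adjusted p = 0.0597) and -0.94 ± 0.30 at 48 h (adjusted p = 0.0547).

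UGT74B1 (AT1G24100) encodes the S-glucosyltransferase of glucosinolate synthesis, the pathway of the sulfur-containing defence compounds of crucifers. The gene read 7.61, 6.31 and 5.19 in glucose and 8.60, 6.18 and 5.35 in sucrose. Each sugar thus showed a lower signal at each later time. It fell by 1.86 ± 0.42 at 24 h (adjusted p = 0.0198) and by 2.83 ± 0.42 at 48 h (adjusted p = 0.00627).

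The immune signal list had 4 of its 6 genes on probe sets of their own, of which 2 were tested, and 1 rose. UGT76B1 (AT3G11340) glucosylates isoleucic acid, salicylic acid and N-hydroxypipecolic acid, signals of plant immunity. It was at the floor on both 0 h arrays, read 6.01 at 24 h and 5.60 at 48 h in glucose, and read 8.06 and 5.20 in sucrose. All 4 cultured signals were thus above those at 0 h, and the highest came from sucrose at 24 h. UGT76B1 was at least 4.40-fold higher at 24 h (adjusted p = 0.0340), but it was tested through its cultured signals alone and so could differ in this direction only. The 24 h difference became 0.92 when sucrose 24 h was left out and 3.36 when glucose 24 h was, and neither passed. Its 48 h difference of 0.50 ± 0.58 did not pass (adjusted p = 0.516). With quantile normalization between arrays the 24 h difference was 2.09 and did not pass (adjusted p = 0.0501), nor did it with the filter of at least 1 array (adjusted p = 0.0507). The call was lost more clearly with no filter on low values (adjusted p = 0.190), and it was kept in 6 of the 9 other settings. UGT71C3, reported to glucosylate methyl salicylate, read from 6.24 to 7.13 on the 6 arrays and did not pass at either time.

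The other rise was that of UGT73D1 (AT3G53150), and it was seen at both times. In glucose it was at the floor at 0 h and read 5.74 and 6.24 at 24 and 48 h, and in sucrose it read 5.05, 5.95 and 5.98. Every cultured signal was above both 0 h signals. UGT73D1 rose by 0.87 ± 0.23 at 24 h (adjusted p = 0.0327) and by 1.14 ± 0.23 at 48 h (adjusted p = 0.0153). Its 24 h difference did not pass with quantile normalization (0.78), with the floor at the 20th percentile or with no filter on low values. The 48 h difference did not pass with no filter on low values either (adjusted p = 0.0606). With 1 array left out, the differences ran from 0.64 to 1.11 at 24 h and from 0.89 to 1.37 at 48 h.

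Among genes for lignin precursors and hydroxycinnamates, the only member of the family that passed was UGT84A3. UGT84A3 (AT4G15490), which forms glucose esters of hydroxycinnamic acids, read 6.54 at 0 h in glucose and was at the floor afterwards, and read 6.88 and 5.74 in sucrose before it reached the floor at 48 h. It fell by 1.39 ± 0.29 at 24 h (adjusted p = 0.0167) and was at least 3.52-fold lower at 48 h (adjusted p = 0.00794). UGT72E1 (AT3G50740), active on coniferyl aldehyde, read 8.02, 8.14 and 7.92 in glucose and 8.17, 6.16 and 7.37 in sucrose. The sucrose 24 h array read lowest, and the glucose arrays differed little between times. Its differences of -0.94 ± 0.40 at 24 h (adjusted p = 0.109) and -0.45 ± 0.40 at 48 h (adjusted p = 0.406) did not pass. GT72B1 (AT4G01070), listed in RefSeq with the synonym UGT72B1 but outside the naming rule, fell by 1.83 ± 0.26 at 24 h and was at least 4.50-fold lower at 48 h.

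On the flavonoid and anthocyanin list no gene that met the naming rule passed, and the 1 call was that of UF3GT, given below. UGT76E11, described above, is not on the list. UGT78D2 (AT5G17050), which adds glucose to flavonols and anthocyanidins, was above the floor on the sucrose 0 h and 24 h arrays alone (5.12 and 5.33). UGT73C6 (AT2G36790), which acts on flavonols and brassinosteroids, read at most 4.99 on any array. UGT73B2 (AT4G34135), active on flavonoids in vitro and also outside the list, read 8.79, 8.54 and 8.54 in glucose and 8.71, 9.04 and 8.12 in sucrose. Its 24 h signals overlapped those at 0 h and its 48 h signals lay below them, with differences of 0.04 ± 0.28 and -0.42 ± 0.28 that did not pass. The anthocyanin gene UF3GT (AT5G54060) is on the list by its synonym UGT79B1 and lies outside the naming rule. It was at the floor at 0 h, so that it too was tested through culture alone. UF3GT was at least 6.64-fold higher at 24 h (adjusted p = 0.00497), with signals of 7.25 in glucose and 8.0 in sucrose. At 48 h it read 4.91 in glucose and 6.74 in sucrose, and the difference from 0 h over both sugars did not pass. DFR, the only 1 of 10 listed genes for flavonoid acceptors with a probe set of its own, rose by 5.54 ± 0.56 at 24 h and 3.39 ± 0.56 at 48 h. Between single arrays, DFR changed from 0 to 48 h by 1.51 in glucose and 5.26 in sucrose. The sugar differences of UF3GT and DFR did not pass in limma.

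On the supply side, 1 of 30 listed genes for the making of UDP-sugars had a probe set of its own. USP (AT5G52560), which encodes a UDP-sugar pyrophosphorylase, read 8.58, 8.71 and 9.99 in glucose and 8.48, 8.33 and 8.92 in sucrose. USP rose by 0.93 ± 0.24 at 48 h (adjusted p = 0.0306), while at 24 h its difference was -0.01 ± 0.24.

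Of the 5 genes on the stress and xenobiotic list with a probe set, 3 fell at 24 h (UGT73B4, UGT73B5 and GT72B1) and 2 at 48 h (UGT73B5 and GT72B1). Among all tested probe sets that name 1 gene, 22.4% and 22% were lower at these times. GT72B1 lies outside the naming rule. UGT73B3 (AT4G34131), which takes part with UGT73B5 in the hypersensitive response, read 7.51, 6.55 and 7.88 in glucose and 7.38, 7.22 and 7.09 in sucrose and did not pass. UGT73C1 (AT2G36750), whose enzyme conjugates TNT and cytokinins, read 5.67, 5.50 and 4.93 in glucose and 5.14 and 7.87 in sucrose at 0 and 24 h, then fell to the floor. Its sucrose 24 h signal stood over 2 units above its other signals, and the 24 h difference of 1.28 ± 0.59 did not pass (adjusted p = 0.130). The sterol glucosyltransferase gene UGT80B1 (AT1G43620) read from 6.81 to 7.43 on the 6 arrays and did not pass at either time, nor did the related gene SGT (AT3G07020, synonym UGT80A2).

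Further members without a role given here also moved. UGT71B5 (AT4G15280) read 7.40, 5.68 and 6.78 in glucose and 7.68, 5.65 and 5.60 in sucrose, with both 0 h signals above the rest. It fell by 1.87 ± 0.38 at 24 h (adjusted p = 0.0152) and by 1.35 ± 0.38 at 48 h (adjusted p = 0.0392), and the 48 h call was lost under 4 of the 10 other settings, the signals as deposited (-1.16) among them, and without any single array. UGT71C4 (AT1G07250) read 8.17, 7.21 and 7.86 in glucose and 8.74, 7.21 and 7.06 in sucrose. UGT71C4 fell by 1.24 ± 0.34 at 24 h (adjusted p = 0.0363), and its 48 h difference of -0.99 ± 0.34 did not pass. Its 24 h call was lost with the signals as deposited (-0.95, adjusted p = 0.0723) and in 5 of the 6 fits that left out an array. UGT89B1 (AT1G73880) read 7.12 on both 0 h arrays and from 5.54 to 5.82 in culture, a fall of 1.44 ± 0.26 at each time. UGT71B1 (AT3G21750) passed at 48 h alone, with a fall of 1.26 ± 0.29.

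UGT88A1 (AT3G16520) was at least 1.89-fold lower at 24 h and did not pass at 48 h. At 0 h it read 6.09 in glucose and 5.54 in sucrose, close to the median background control (6.07 and 5.51). UGT85A4 (AT1G78270), with 5.43 and 5.75 at 0 h and the floor on all cultured arrays, was lower by at least 1.62-fold at 24 h and at 48 h; it passed in 4 of the 9 other settings tried, at each time, and in none of the 4 fits without a cultured array. The 24 h falls of UGT71C4 and UGT89B1, which were above the floor on all arrays, were smaller than the difference of the background controls (-1.47), and those of 10 other genes were larger. The 24 h differences of UGT84A3, UGT85A4 and UGT88A1 hold floored signals and were not set against it. In glucose at 0 h, UGT85A4 read under the median background control. At 48 h, 12 of the 13 falls were larger than the controls' difference (-1.22), and that of UGT85A4 is a bound. UGT87A2 (AT2G30140), a gene that affects flowering time, read 10.68, 10.78 and 10.35 in glucose and 10.97, 11.37 and 10.67 in sucrose. Its 24 h signals overlapped those at 0 h and its 48 h signals lay just below them, with differences of 0.25 ± 0.18 and -0.32 ± 0.18 that did not pass. UGT73B1, UGT73C2 and UGT73C7 did not pass at either time.

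By family, calls ran in both directions only in UGT73 and UGT76. In UGT71, 4 of 6 tested genes were lower at each time, with median differences of -1.54 and -1.30, where 22.4% and 22% of all tested probe sets that name 1 gene were lower. In UGT74 and UGT85 both tested genes were lower at each time. The medians were -1.89 and -2.25 in UGT74 and -2.90 and -2.96 in UGT85, where the UGT85 medians hold 1 gene at its bound. UGT85A4 in UGT85 and UGT71C5 in UGT71 were tested through the 0 h arrays alone and so could differ in this direction only. UGT76 had 2 lower and 1 higher of 4 at 24 h and 2 lower at 48 h. UGT73 had 2 lower and 1 higher of 10 at 24 h and 1 of each at 48 h, with medians of -0.11 and -0.35. UGT84 had 1 lower of 2 at each time, UGT89 its 1 gene at each time and UGT88 its 1 gene at 24 h. The single tested genes of UGT72, UGT78, UGT80 and UGT87 under the naming rule did not pass. Outside the rule, GT72B1 (synonym UGT72B1) fell at both times and SGT (synonym UGT80A2) did not pass. The difference between families was not tested.

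Position was not used by the naming rule. In the gene order of TAIR10.1, 34 of the 51 genes lay in 14 groups of neighbours with at most 3 genes between members, and 17 lay alone. UGT76E12 and UGT76E11 both fell at both times, and UGT73B5 and UGT73B4 both fell at 24 h. In the group UGT71C5, UGT71C4 and UGT71C3 the 24 h differences were -2.68, -1.24 and -0.42, and the last did not pass. UGT85A2 was the only gene above the floor among its 4 neighbours UGT85A7, UGT85A2, UGT85A5 and UGT85A3, and in UGT73B3, UGT73B2 and UGT73B1 none passed. The trio UGT71D1, UGT71C2 and UGT71C1 and the pair UGT76E1 and UGT76E2 were at the floor throughout, while of UGT73D1 and UGT73C7 the first rose and the other did not pass. Neighbouring copies can be alike in sequence, and how far a probe set reads more than its own gene was not tested.

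**Figure D4:**
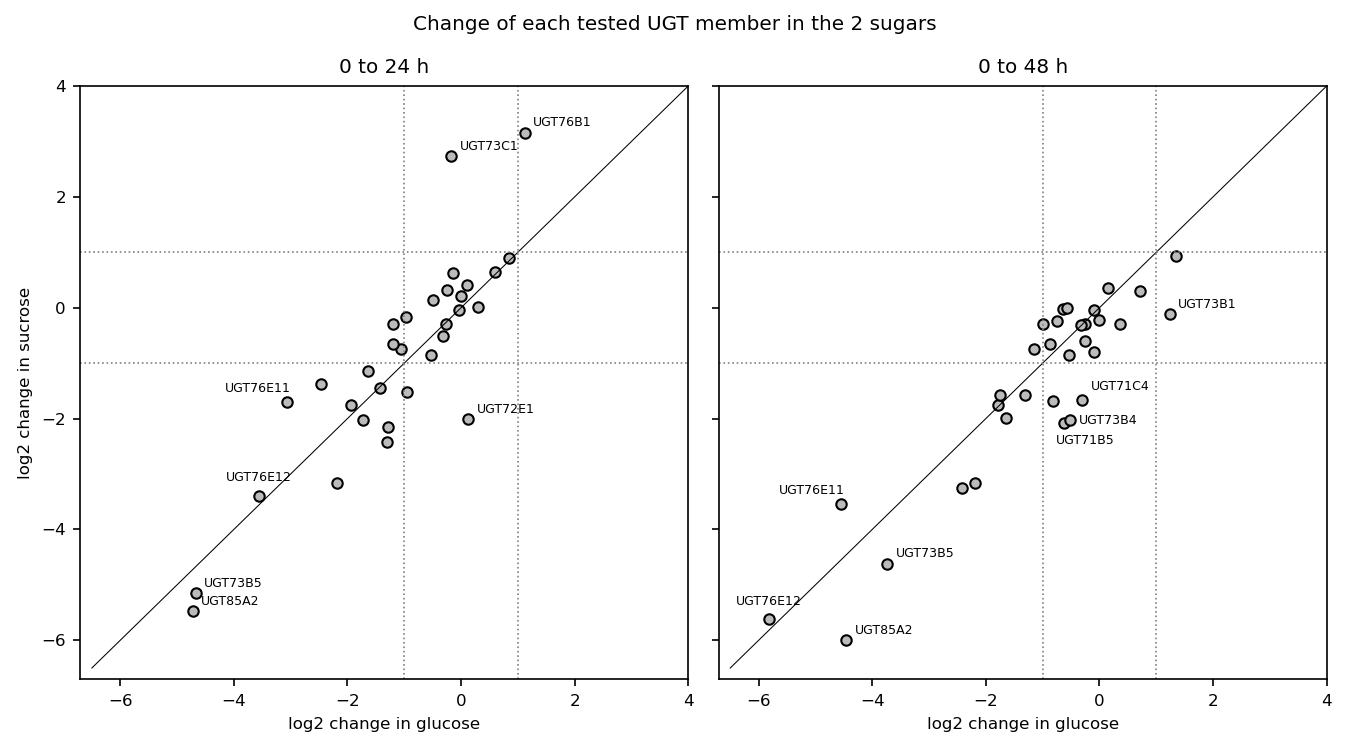
Log2 change of each tested UGT gene from 0 h to 24 h (left) and to 48 h (right) in glucose (horizontal axis) and sucrose (vertical axis), each between single arrays; dotted lines mark 2-fold and the diagonal marks equal change. Most points lie near the diagonal. At 24 h UGT73C1, UGT76B1 and UGT76E11 (-3.06 in glucose and -1.70 in sucrose) lie above it and UGT72E1 below it. At 48 h UGT85A2, UGT73B4, UGT71B5, UGT71C4 and UGT73B1 lie below it.

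Within each sugar the same comparison can be read between single arrays, with no test. At least 2-fold lower in both sugars were 12 of the 32 tested UGT genes at 24 h and 10 at 48 h, where 13.5% and 14.3% of all tested probe sets were. At least 2-fold higher in both sugars were 1 gene (UGT76B1) at 24 h and 0 at 48 h, against 17.6% and 13.7%. From 24 to 48 h, UGT71B1, UGT76E11 and UGT76E12 were at least 2-fold lower in both sugars, UGT74B1 in glucose, and UGT73C1, UGT76B1 and UGT76D1 in sucrose. The opposite step was seen for UGT71B5 and UGT73B3 in glucose and UGT72E1 in sucrose. In glucose 12.1% of all probe sets above the floor on either array were at least 2-fold lower at 48 h than at 24 h and 8.3% higher, and of those that name 1 gene 5.95% and 10.5%. In sucrose these shares were 4.66% and 5.79% of all, and 5.2% and 7.12% of those that name 1 gene. In the limma test of 48 h against 24 h over both sugars 0 UGT genes passed, as did 0% of all probe sets, while 7 UGT genes and 4872 probe sets had an unadjusted p under 0.05.

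The next comparison asked whether the sugar made a difference in culture. Over 24 and 48 h together, 0 of the 32 tested UGT genes passed in limma, and 0% of all tested probe sets did, with a smallest adjusted p of 0.151. At an unadjusted p under 0.05 there were 2 UGT genes, UGT72E1 and UGT73B5, among 2613 probe sets. The differences with the same sign at both times were largest for UGT72E1 (-1.27 ± 0.40, sucrose minus glucose; adjusted p = 0.452), UGT73B1 (-1.06 ± 0.43), UGT73B5 (-0.92 ± 0.29) and UGT71B5 (-0.61 ± 0.38) on the lower side. On the higher side they were UGT74D1 (0.52 ± 0.33), UGT87A2 (0.46 ± 0.18) and UGT76E11 (0.38 ± 0.35). UGT73B1 (AT4G34138), not described above, read 6.58, 7.17 and 7.82 in glucose and 6.17, 6.81 and 6.05 in sucrose. Its glucose signals were above the sucrose ones at all 3 times, 0 h included.

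**Figure D5:**
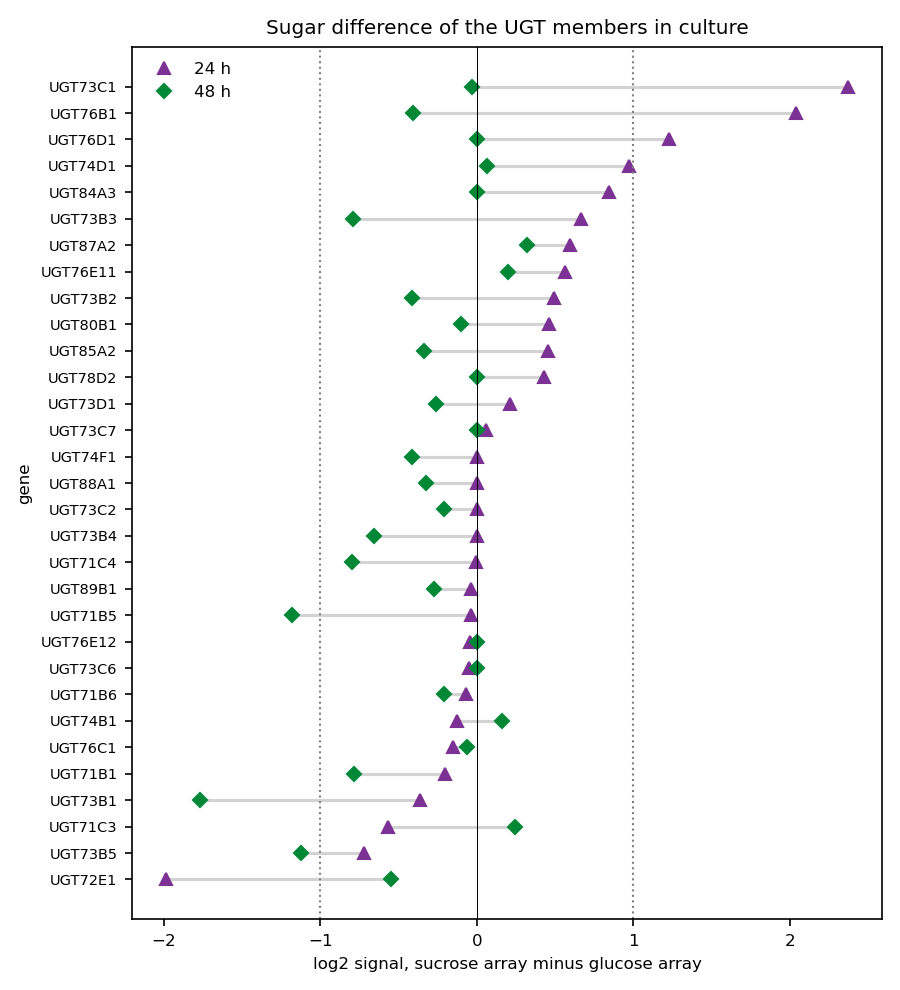
Log2 signal on the sucrose array minus that on the glucose array for each UGT gene with a difference, at 24 h (triangles) and 48 h (diamonds), 1 array per sugar and time; dotted lines mark 2-fold. UGT73C1, UGT76B1 and UGT76D1 lie beyond 2-fold on the sucrose side at 24 h alone, UGT72E1 on the glucose side at 24 h, and UGT73B1, UGT71B5 and UGT73B5 on the glucose side at 48 h.

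At single times the sugar differences had no replicate beyond the 0 h pair. At 24 h, UGT73C1 (by 2.37), UGT76B1 (by 2.04) and UGT76D1 (by 1.23) were at least 2-fold higher in sucrose among 28 UGT genes above the floor on either array, where 3.48% of all probe sets and 4.18% of those that name 1 gene were. UGT72E1 was lower by that measure (-1.98), as were 3.58% of all and 3.41% of those that name 1 gene. At 48 h, 0 of 25 UGT genes were at least 2-fold higher in sucrose, where 8.55% of all probe sets and 3.02% of those that name 1 gene were. UGT73B1 (-1.77), UGT71B5 (-1.18) and UGT73B5 (-1.12) were lower, where 6.33% of all and 8.02% of those that name 1 gene were. In the limma model with the cultured arrays kept apart, 0 UGT genes passed at 24 h, at 48 h or for the change between them, as did 0% of all probe sets. At an unadjusted p under 0.05 these tests gave 4, 3 and 4 UGT genes and 2955, 4472 and 3473 probe sets. The smallest adjusted p among UGT genes was 0.265 at 24 h, 0.245 at 48 h and 0.255 for the change.

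A second probe set was present for 5 genes and tested for 3 of them. UGT76E12's other probe set fell by 2.10 ± 0.29 at 24 h and 2.23 ± 0.29 at 48 h, against 3.47 and at least 52.7-fold for the one of higher signal, and it stayed above the floor in culture. UGT71B6's other probe set was lower by at least 2.69-fold at 24 h and at 48 h. The second probe sets of UGT73C6 and UGT85A4 were not tested, as neither was above the floor on 2 arrays. The direction was thus the same on both probe sets of UGT71B6, UGT74D1 and UGT76E12.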

How the data were processed

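Transcripts were measured on 6 Affymetrix arrays, with amplified, biotin-labelled RNA per the labels' protocols. The values are log2 signals per probe set deposited by the authors, made with GCOS per the submitters' processing notes; for its version, background correction and normalization the sources used here give nothing, and the log base was read from the values. Amplification can change relative levels, and low signals mix transcript and background.

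After 98 control probe sets were left out, each array was scaled to the mean of the 2% trimmed means (166.6 to 207.4, linear scale; tolerance 5%), floored at the pooled 40th percentile and filtered (above the floor on at least 2 arrays, 25826 of 38310 probe sets). limma 3.58.1 (R 4.3.3; lmFit, eBayes with intensity trend, two-sided, Benjamini-Hochberg over all tested probe sets at 0.05) fitted 4 coefficients: 3 time means and 1 sugar term for cultured arrays (2 residual degrees of freedom, prior 3.24). Another model gave each cultured array its own mean (5 coefficients, 1 residual degree of freedom: the 0 h pair). The fit was tested on simulated data. Genes were named from the platform's probe table and RefSeq TAIR10.1; 20829 probe sets are not in that table.

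The UGT members, role lists and settings were chosen with earlier results of these data known. Values on all arrays are given for the 8 largest rises and falls past the threshold at 24 h and at 48 h, the 4 largest sugar differences per direction of the same sign at both times, role-list members with a call, and the 4 members of highest mean signal. UGT73B1, UGT73B3 and UGT73C1 and others were also given after their values were seen. Alternatives were 2 other scalings, 2 floors, 2 filters, 2 designs, a fit without trend, the mean of a gene's probe sets, and leaving out each array. The number of arrays limits the precision.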

Additional observations from a re-analysis of the deposited data

Results flagged for a closer look

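UGT72E1, UGT73C1 and UGT73B1 changed by at least 2-fold in 1 of the sugars between single arrays, and little in the other, with the opposite sign. The smaller change was in each gene less in size than the difference of its own 0 h pair. That difference, sucrose minus glucose, was 0.15 for UGT72E1, -0.53 for UGT73C1 and -0.40 for UGT73B1. From 0 to 24 h UGT72E1 changed by 0.13 in glucose and -2.0 in sucrose, so that its change in sucrose minus that in glucose was -2.13 on the log2 scale. UGT73C1 changed by -0.17 in glucose and 2.73 in sucrose over the same time, a difference of 2.90. From 0 to 48 h UGT73B1 changed by 1.24 in glucose and -0.12 in sucrose, a difference of -1.36. The difference between the 2 changes was not tested, since each rests on 1 array per sugar and time. The sugar difference at the later time alone, tested in limma with the spread of the 0 h pair, gave adjusted p-values of 0.292 for UGT72E1 and 0.401 for UGT73C1 at 24 h and 0.280 for UGT73B1 at 48 h, and none passed.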

How the results depend on the processing

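The counts of UGT genes past the threshold were 17 at 24 h and 14 at 48 h. They stayed within 1.5 times of these with signals as deposited, quantile normalization, a floor at the 20th percentile, a filter of at least 1 array, no intensity trend, 3 time means only, sugar as a block and the mean of a gene's probe sets. With the floor at the 60th percentile they were 9 and 8, with 22 UGT genes tested; of the 8 and 6 calls lost, 4 at each time were of genes still tested, whose differences shrank as the floor rose. With no filter on low values they were 5 and 6, with 10387 probe sets at the floor on all 6 arrays in the fit; the cause was not tested. Leaving out 1 array gave 0 to 13 at 24 h, 0 to 12 at 48 h, 0 to 1 for 48 h against 24 h and 0 to 0 for the sugars; where an arm was left with 1 array, that array was assumed to vary like the others. UGT85A2, UGT73B5 and UGT76E12 at both times, and UGT76E11 at 48 h, kept their calls under all 10 of the other settings, arrays left out not counted. UGT76E11's sugar difference turned from 0.38 to -0.0108 with sugar as a block over all 6 arrays, and neither value passed. Without scaling the median of all tested probe sets was 0.36 at 24 h and 0.28 at 48 h, against 0.10 and 0.13, and the UGT calls were 2 higher and 13 lower, and 1 higher and 11 lower. Over all tested probe sets 8019 were then higher and 3881 lower at 24 h, against 6248 and 5120 with scaling, and 6718 and 4361 at 48 h, against 5715 and 5137. With quantile normalization the UGT calls were 0 higher and 16 lower at 24 h and 1 higher and 15 lower at 48 h (all probe sets: 5665 higher and 5329 lower, and 5500 and 5226). Scaling turned the sign of 4 uncalled differences: UGT73C6 and UGT73C7 as deposited and UGT71B1 with quantile normalization at 24 h, and UGT73B3 with quantile normalization at 48 h. The labels carry no replicate numbers; with the arrays paired by sugar, as a block over all 6, 18 and 16 UGT genes passed. Signals near the floor limit what the arrays can show: folds of floored genes are bounds.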

Other observations

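UGT84A1, a gene for glucose esters of hydroxycinnamic acids, was named together with AT4G15475 on 2 probe sets, so their signal cannot be given to either gene. Their log2 differences were -0.81 and -0.62 at 24 h and -0.42 and -0.62 at 48 h, and none passed in limma (adjusted p from 0.0510 to 0.270). The sterol glucosyltransferase gene SGT read 8.70, 8.11 and 9.33 in glucose and 8.49, 8.22 and 8.43 in sucrose at 0, 24 and 48 h, and AT5G54010, with the RefSeq synonym UGT79B6, was at the floor on all 6 arrays.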
